A study of Homo sapiens with 10 samples.

Results

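The genes of cholesterol and fatty acid synthesis were described in the prostate cancer lines LNCaP and DU145. The list held 31 genes: 18 enzymes that lead from acetyl-CoA to cholesterol, 6 regulators and carriers, and 7 enzymes of fatty acid synthesis. Each gene was represented by the single-symbol probe set with the highest mean over all arrays. In all, 28 of the 31 genes were measured in this way, among 14313 genes tested. They were 16 sterol enzymes, 6 regulators and 6 fatty acid enzymes. FDFT1, CYP51A1 and FADS1 had no probe set that the platform annotation gave to 1 symbol, and they were not analysed here. Of the 28 genes, 27 lay above the median probe set in all 10 arrays, and MVD, mevalonate diphosphate decarboxylase, did so in 7.

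LNCaP was derived from a lymph node metastasis and responds to androgens, whereas DU145 came from a brain metastasis and grows without them. Within each line, EOS cells had been transduced with a reporter in which enhancers of OCT4 and SOX2 drive GFP and puromycin resistance, and had then been kept in puromycin for a few weeks. The PGK cells that served as their controls carried the same GFP and resistance genes under the ubiquitous PGK promoter, so every sample was a transduced cell. Each line had 1 array of EOS cells treated with ribavirin, a guanosine analogue that inhibits IMP dehydrogenase, with 2 EOS arrays and 2 PGK arrays, numbered 1 and 2. The ribavirin cells were labelled as treated EOS cells of number 2, and no dose was given. Per the labels, the selected cells are a population enriched for higher OCT4. The labels did not say whether arrays 1 and 2 came from separate cultures. A p-value here therefore reflects array-to-array spread, part or all of which may be technical.

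Cells make cholesterol and fatty acids from acetyl-CoA, and both routes are switched on by the SREBP transcription factors, which SREBF1 and SREBF2 encode. SREBPs are held in the membrane of the endoplasmic reticulum with the escort protein SCAP. When sterols are plentiful, INSIG1 and INSIG2 keep this complex in place, and when sterols are scarce SCAP carries SREBP to the Golgi, where it is cut and released to the nucleus. The genes it turns on include most sterol enzymes, INSIG1 itself and the fatty acid enzymes FASN and SCD. In prostate cancer cells, LNCaP among them, androgens are known to raise lipid synthesis enzymes through this system.

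Promoters were searched because SREBPs are weak activators alone and act on sterol genes beside the factors NF-Y and Sp1. Some of them are shown. The RefSeq promoter table of GRCh38.p14 held 27 of the 31 listed genes, each with 250 bases before and 50 bases after its start, among 27305 genes. Both strands of the first listed start of each gene were searched for 3 motifs, and a promoter was counted once for each motif whether or not matches overlapped. CCAAT, the core of NF-Y sites, was present in 12 of 15 sterol enzyme promoters (80%), 3 of 6 regulator promoters (50%) and 2 of 6 fatty acid enzyme promoters (33.3%), against 35.7% of all promoters. GGGCGG, the core of Sp1 sites, was present in 25 of the 27 promoters (92.6%), against 44.6% of all. TCACNCCAC, a form of the sterol regulatory element, was matched only by SREBF2 among the 27 (3.7%), against 1.15% of all. Sequences run 5′ to 3′ on the strand of the gene, and capitals mark CCAAT, its complement ATTGG and the TCACNCCAC match.
INSIG1, chr7:155297628-155297927, plus strand: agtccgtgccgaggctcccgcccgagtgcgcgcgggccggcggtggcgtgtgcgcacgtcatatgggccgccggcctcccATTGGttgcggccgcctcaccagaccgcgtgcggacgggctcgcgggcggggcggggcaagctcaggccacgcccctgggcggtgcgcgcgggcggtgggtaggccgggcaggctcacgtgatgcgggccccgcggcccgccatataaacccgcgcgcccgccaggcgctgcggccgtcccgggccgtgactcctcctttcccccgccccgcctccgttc
HMGCS1, chr5:43313363-43313662, minus strand: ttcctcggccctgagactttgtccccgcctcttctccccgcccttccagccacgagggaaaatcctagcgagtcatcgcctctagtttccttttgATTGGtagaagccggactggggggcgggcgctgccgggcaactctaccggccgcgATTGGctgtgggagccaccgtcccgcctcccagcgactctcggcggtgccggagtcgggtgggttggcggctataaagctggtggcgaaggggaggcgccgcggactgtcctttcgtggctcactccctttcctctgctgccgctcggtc
MSMO1, chr4:165327419-165327718, plus strand: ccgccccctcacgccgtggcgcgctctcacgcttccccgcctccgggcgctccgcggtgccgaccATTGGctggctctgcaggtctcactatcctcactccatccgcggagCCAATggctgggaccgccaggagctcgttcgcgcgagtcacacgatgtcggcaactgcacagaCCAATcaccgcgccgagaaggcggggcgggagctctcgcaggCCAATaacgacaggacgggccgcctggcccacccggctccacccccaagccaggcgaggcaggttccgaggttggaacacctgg
SCD, chr10:100346983-100347282, plus strand: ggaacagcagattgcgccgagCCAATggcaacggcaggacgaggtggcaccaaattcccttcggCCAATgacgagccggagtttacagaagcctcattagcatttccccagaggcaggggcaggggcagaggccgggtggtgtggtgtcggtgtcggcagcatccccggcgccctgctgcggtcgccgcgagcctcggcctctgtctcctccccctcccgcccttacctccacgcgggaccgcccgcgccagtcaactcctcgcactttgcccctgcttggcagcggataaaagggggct
SREBF2, chr22:41832855-41833154, plus strand: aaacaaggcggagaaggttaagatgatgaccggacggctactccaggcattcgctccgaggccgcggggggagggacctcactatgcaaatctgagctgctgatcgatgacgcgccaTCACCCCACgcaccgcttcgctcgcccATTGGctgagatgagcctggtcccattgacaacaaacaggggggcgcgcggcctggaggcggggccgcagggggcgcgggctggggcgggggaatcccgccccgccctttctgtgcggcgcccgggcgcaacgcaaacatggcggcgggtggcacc
The window of MSMO1, a methyl sterol oxidase, held 4 CCAAT matches. HMGCS1 and SCD held 2 each, and INSIG1 held 1. The SREBF2 window held 1 CCAAT match and the 1 match to the sterol regulatory element. The windows shown are a selection, and all of them hold CCAAT. At the first listed start, SREBF1 and IDI1, which are not shown, held 0 CCAAT matches, although other starts of IDI1 held some. A match describes these letters and does not show that a factor was bound in these cells.

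The arrays numbered 2 and 1 differed before any gene was tested. The deposited intensities had trimmed means of 96.6 to 127 in the 6 arrays numbered 2 and of 500 in each of the 4 numbered 1, and all arrays were rescaled to 500. The 3′ control probe set of ACTB was brighter than its 5′ counterpart, which can reflect short RNA or short amplified copies, and their ratio was 3.20 to 3.99 in number 2 and 1.24 to 1.51 in number 1, without overlap. For GAPDH this ratio was 1.09 to 1.22 in number 2 and 0.959 to 1.06 in number 1. The part of these differences in any result below was not tested. The line labels fitted their markers: the summed scaled intensity of 4 luminal genes was 45056 to 73633 in LNCaP and 56.0 to 114 in DU145, where all 4 lay below the array median. The PGK array numbered 2 of LNCaP stood apart from the other 4 LNCaP arrays in the luminal genes KLK2, at 12.55 against 13.94 to 14.22, and TMPRSS2, at 11.79 against 12.67 to 13.40. HOXB13 was also lowest in that array, at 11.30 against 11.75 to 11.96. KLK3 was not, at 15.01 against 14.80 to 15.33. The summed intensity of 5 adipocyte and hepatocyte markers, the genes of other cells that make lipid, was 117 to 237 in LNCaP and 113 to 164 in DU145, with 4 of the 5 below the array median in every array of each line. In cultured bulk samples, fewer cells of a type and less RNA per cell cannot be told apart.

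Levels are log2(scaled intensity + 16), called log2 intensity, on which a difference of 1 is a doubling for a bright gene. Values for a line are given in the order EOS ribavirin, EOS 2, EOS 1, PGK 2 and PGK 1. Values after ± are moderated standard errors (SE) from limma, and a gene passed the test where its Benjamini-Hochberg adjusted p over 14313 genes was under 0.05. No level is set against that of another gene, since probe sets differ in brightness.

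**Figure D1:**
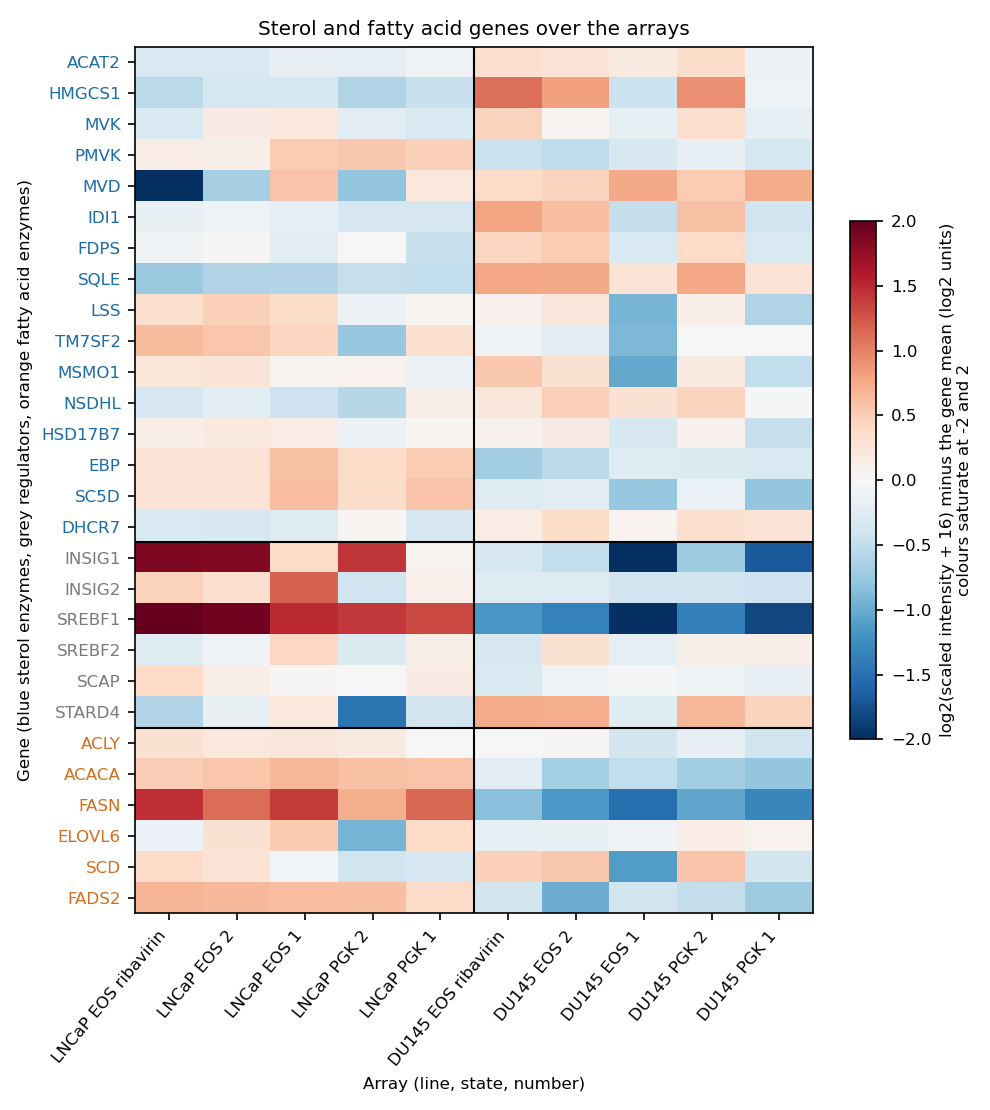
Heat map of the 28 genes in the 10 arrays. Rows are genes grouped as sterol enzymes, regulators and fatty acid enzymes. Columns are the 5 LNCaP arrays and then the 5 DU145 arrays, each in the order EOS ribavirin, EOS 2, EOS 1, PGK 2, PGK 1. Colour is log2 intensity minus the mean of the gene over the 10 arrays, with the scale ending at -2 and 2. SREBF1, FASN and INSIG1 were high in LNCaP, SQLE was high in DU145, and HMGCS1, IDI1, LSS and MSMO1 were lower in the DU145 arrays numbered 1 than in those numbered 2.

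The first comparison was between the lines, taken over the 3 states. LNCaP had more SREBF1, INSIG1 and fatty acid synthesis RNA than DU145, whereas several sterol enzymes were lower in LNCaP. Of the 28 genes, 11 were higher and 7 lower in LNCaP, where 48.4% of all genes passed the test (23.5% higher and 24.9% lower). The lower genes were thus about as frequent as among all genes. The arms differed in direction: 3 of 16 sterol enzymes were higher and 6 lower, 4 of 6 regulators were higher and 1 lower, and 4 of 6 fatty acid enzymes were higher and 0 lower. The median difference, LNCaP minus DU145, was -0.30 over the sterol enzymes, 0.52 over the regulators and 0.71 over the fatty acid enzymes, against -0.04 over all genes.

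SREBF1, which encodes the SREBP that acts mainly on fatty acid genes, had log2 intensities of 11.56, 11.43, 11.00, 10.92 and 10.83 in LNCaP, against 8.34, 8.16, 7.01, 8.15 and 7.68 in DU145. The lines did not overlap, and the difference of 3.27 ± 0.25 was 9.66-fold (adjusted p = 1.49e-05). Its relative SREBF2, which acts mainly on sterol genes, had 8.28, 8.47, 8.95, 8.26 and 8.65 in LNCaP, against 8.21, 8.83, 8.35, 8.64 and 8.66 in DU145. The lines overlapped for SREBF2, with a difference of -0.00 ± 0.20. INSIG1, which retains the SCAP complex, had 14.31, 14.29, 12.84, 13.88 and 12.52 in LNCaP, against 12.11, 11.95, 10.04, 11.74 and 10.77 in DU145. Every LNCaP array was above every DU145 array, and the difference was 2.24 ± 0.48 (4.73-fold, adjusted p = 0.00489). INSIG2 and SCAP were also higher in LNCaP, by 0.68 ± 0.20 (adjusted p = 0.0215) and 0.36 ± 0.13 (adjusted p = 0.0437).

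FASN, fatty acid synthase, had log2 intensities of 11.47, 11.12, 11.41, 10.73 and 11.15 in LNCaP, against 9.17, 8.86, 8.50, 8.96 and 8.70 in DU145. The lines were far apart, with a difference of 2.33 ± 0.17 (5.04-fold, adjusted p = 9.4e-06). ACACA, the acetyl-CoA carboxylase that makes malonyl-CoA for FASN, had 11.80, 11.86, 11.97, 11.89 and 11.87 in LNCaP, against 11.09, 10.64, 10.82, 10.61 and 10.53 in DU145. Again no array overlapped, and the difference was 1.07 ± 0.11 (adjusted p = 0.000108). A second probe set of ACACA differed by -0.22, in the other direction. FADS2, a desaturase of polyunsaturated fatty acids, had 10.68, 10.66, 10.62, 10.60 and 10.39 in LNCaP, against 9.64, 9.002, 9.61, 9.52 and 9.29 in DU145. It was higher in LNCaP by 1.15 ± 0.17 (adjusted p = 0.000574), without overlap. ACLY, ATP citrate lyase, which supplies cytosolic acetyl-CoA to both routes, had 14.03, 13.94, 13.94, 13.90 and 13.72 in LNCaP, against 13.71, 13.75, 13.35, 13.56 and 13.33 in DU145. The lines overlapped slightly for ACLY, and the difference was 0.36 ± 0.12 (adjusted p = 0.0317). Several of these differences were smaller when all kept probe sets of a gene were averaged: 2.08 for SREBF1, 1.30 for FASN, 0.74 for FADS2 and 0.42 for ACACA, all of which still passed. The other fatty acid enzymes did not pass the test: ELOVL6, an elongase, differed by 0.07 ± 0.25, and SCD, the desaturase that makes oleate, by -0.05 ± 0.32.

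Among the sterol enzymes, SQLE, squalene epoxidase, had log2 intensities of 11.14, 11.28, 11.31, 11.43 and 11.39 in LNCaP, against 12.67, 12.64, 12.16, 12.67 and 12.18 in DU145. SQLE was 2.32-fold lower in LNCaP (difference -1.22 ± 0.15, adjusted p = 0.00023), and the lines did not overlap. HMGCS1, which makes HMG-CoA, had 10.57, 10.76, 10.76, 10.51 and 10.67 in LNCaP, against 12.22, 11.94, 10.68, 12.03 and 11.02 in DU145. The difference of -1.04 ± 0.28 passed the test (adjusted p = 0.0152), but the DU145 EOS array numbered 1 lay within the LNCaP range. MVD, a dim gene below the array median in 3 arrays, had 4.30, 5.80, 7.02, 5.67 and 6.68 in LNCaP, against 6.85, 6.90, 7.21, 6.97 and 7.21 in DU145. MVD was lower in LNCaP, with a difference of -1.37 ± 0.35 (adjusted p = 0.0116) and with the LNCaP ribavirin value close to 4, the lowest value the scale allows, while the LNCaP EOS array numbered 1 lay within the DU145 range. The MVD difference ran from -2.11 to -0.74 over the other settings tried, so its size depends on the pseudocount and the scaling. The sterol carrier STARD4 was also lower, with -1.004 ± 0.28 (adjusted p = 0.0154), as were the enzymes NSDHL, DHCR7 and ACAT2, with differences of -0.56, -0.47 and -0.45. EBP, SC5D and PMVK, which act late or early in the route, were higher in LNCaP by 0.85 ± 0.12, 0.81 ± 0.19 and 0.69 ± 0.13. Over all 28 genes, the lines did not overlap in 9 that were higher in LNCaP and in 2 that were lower (SQLE and DHCR7), where 20.4% and 22.0% of all genes did so. The other probe set of DHCR7 differed by -0.04. With all kept probe sets averaged, DHCR7 and ACLY differed by -0.25 and 0.33 and did not pass (adjusted p = 0.123 and 0.0666).

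With array number as a block, 13 of the 28 genes were higher in LNCaP and 9 lower, against 27.3% and 28.3% of all genes. The added genes were LSS (0.57, adjusted p = 0.00581) and TM7SF2 (0.65, adjusted p = 0.0272) on the higher side and IDI1 (-0.35, adjusted p = 0.00988) and FDPS (-0.25, adjusted p = 0.0452) on the lower side. Another probe set of LSS gave -1.16, in the other direction. Among the PGK arrays alone, 9 of the 28 passed, where 33.1% of all genes did. INSIG1 and HMGCS1 were not among them, although their differences there were 1.95 and -0.93. INSIG2 was not among them either, with 0.25. The calls of ACLY, SCAP, NSDHL, DHCR7, INSIG2 and ACAT2 were each lost when at least 1 single array was left out.

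**Figure D2:**
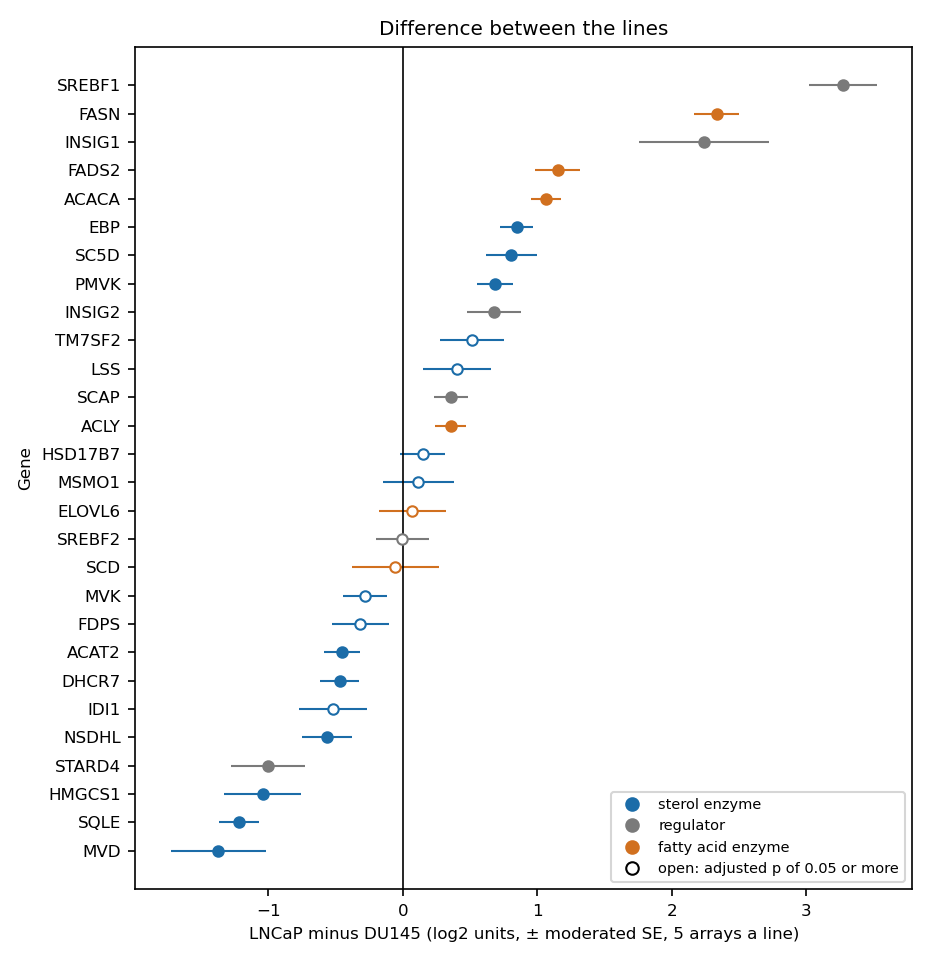
Difference in log2 intensity, LNCaP minus DU145 over the 3 states, for the 28 genes, sorted by difference and coloured by arm. Points are estimates and bars moderated standard errors. Filled points passed the test over all genes. SREBF1, FASN and INSIG1 lie between 2.24 and 3.27, SQLE and MVD at -1.22 and -1.37.

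Both the size and the sign of the median line difference in the sterol arm moved with the array number. The median of -0.30 over the 3 states leans towards number 2, since the ribavirin arrays were all of that number. With array number as a block it was -0.23. Within number 2, the median sterol enzyme differed, LNCaP minus DU145, by -0.48 in ribavirin-treated EOS cells, -0.27 in EOS cells and -0.47 in PGK cells. Within number 1 it differed by 0.35 in EOS cells and 0.11 in PGK cells. Thus 6, 7 and 3 of the 16 sterol enzymes were above 0 in the number 2 pairs, and 11 and 10 of 16 in the number 1 pairs. Among all 14313 genes, 6772, 7261 and 7033 were above 0 in the number 2 pairs, and 7256 and 6809 in the number 1 pairs. HMGCS1 differed by -1.65, -1.17 and -1.51 in the number 2 pairs and by 0.08 and -0.34 in the number 1 pairs. SQLE kept its direction, at -1.53, -1.36 and -1.23 in number 2 and -0.86 and -0.79 in number 1. The fatty acid enzymes had medians of 0.51, 0.83 and 0.71 in the number 2 pairs and of 1.04 and 0.75 in the number 1 pairs, all above 0. SCD and ELOVL6 were below 0 in some pairs of that arm. SCD differed by -0.09, -0.27 and -0.97 in number 2 and by 1.07 and 0.03 in number 1. ELOVL6 differed by 0.08, 0.44 and -1.08 in number 2 and by 0.60 and 0.33 in number 1, with the value of -1.08 in the pair that holds the LNCaP PGK array numbered 2.

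The second comparison was between array numbers within each line, from a fit with a number term in each line. In LNCaP INSIG1 was the 1 gene of the 28 that passed the test, with more RNA in the arrays numbered 2. In DU145 none of the 28 passed, and 13 of 16 sterol enzymes had differences above 0, against 7577 of all 14313 genes. The number term rests on the EOS and PGK arrays, and the ribavirin arrays, all of number 2, add nothing to it.

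In LNCaP, 1 of the 28 genes was higher in number 2 and 0 lower, where 6.45% of all genes passed (3.60% higher and 2.85% lower). INSIG1 had log2 intensities of 14.29 and 13.88 in the EOS and PGK arrays numbered 2, against 12.84 and 12.52 in those numbered 1. The ribavirin array, at 14.31, sat with number 2, and the 2 numbers did not overlap. The difference was 1.41 ± 0.21 (2.65-fold, adjusted p = 0.00934), and it was 1.45 in EOS cells and 1.36 in PGK cells. All 3 probe sets of INSIG1 were higher in number 2, by 1.41, 1.36 and 1.31. At an unadjusted p under 0.05, 2 of the 28 were higher and 4 lower, against 12.6% and 11.1% of all genes. FDPS, farnesyl diphosphate synthase, was the other higher gene, by 0.34. Among markers of other cells in LNCaP, 4 leukocyte genes summed to 195 to 271 in number 2 and 76.9 to 101 in number 1, with 2 of the 4 below the array median in every array numbered 2 and 3 in every array numbered 1. That sum rests on LYZ, at 7.70, 7.50 and 7.27 in the arrays numbered 2 against 4.31 and 4.30 in those numbered 1 (difference 3.08, adjusted p = 0.0138), while CD3E differed by -0.28 and PTPRC and CD14 overlapped between numbers. The keratin pair, KRT8 and KRT18, summed to 17136 to 21765 in number 2 and 20023 to 23378 in number 1. KRT8 passed the test, at 11.82, 11.15 and 10.89 in number 2 against 12.53 and 12.14 in number 1 (difference -1.31, adjusted p = 0.00637). KRT18 overlapped, with a difference of -0.01. The fibroblast genes summed to 284 to 780 and 487 to 613. The DU145 markers CD44, VIM, GSTP1 and ZEB1 summed to 3242 to 4930 in number 2 and 1373 to 3120 in number 1. Of these, 3 were above 0 and 0 passed the test. The part of these markers in the INSIG1 difference was not tested.

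The 4 lower genes in LNCaP came from different steps and did not pass the test over all genes. MVD had 5.80 and 5.67 in the EOS and PGK arrays numbered 2, against 7.02 and 6.68 in those numbered 1, a difference of -1.12 ± 0.39 (adjusted p = 0.130). ELOVL6 had 11.43 and 10.20 in number 2, against 11.65 and 11.53 in number 1, a difference of -0.78 ± 0.24 (adjusted p = 0.101). That value rests on the PGK array numbered 2, and without it the ELOVL6 difference was -0.23. STARD4 had 9.80 and 8.48 in number 2, against 10.16 and 9.57 in number 1, a difference of -0.72 ± 0.25 (adjusted p = 0.130) that was -0.36 without the same array. INSIG2 had 10.75 and 10.02 in number 2, against 11.60 and 10.51 in number 1, a difference of -0.67 ± 0.17 (adjusted p = 0.0563). INSIG1 and INSIG2, which share the role of holding SCAP, thus had differences of opposite sign. The median over the 16 sterol enzymes was -0.07, with 6 above 0, and that over the 6 fatty acid enzymes was 0.02, against 0.02 over all genes. Among all 14313 genes, 7361 were above 0. The other sterol genes had no common gap between numbers in LNCaP in the probe sets used. Over the 28 genes, 16 of 30 other kept probe sets shared the sign of the probe set used in LNCaP, and 25 did in DU145. HMGCS1 had 10.76 and 10.51 in the EOS and PGK arrays numbered 2, against 10.76 and 10.67 in those numbered 1. IDI1 had 12.41 and 12.17 in number 2, against 12.31 and 12.18 in number 1, with 12.36 in the ribavirin array. LSS had 10.87 and 10.27 in number 2, against 10.75 and 10.45 in number 1, with 10.72 in the ribavirin array. In all 3 genes the numbers overlapped in the probe set used. The other kept probe sets differed by -0.45 for HMGCS1, by -0.06, -0.46 and -0.77 for IDI1, and by -0.28 and -0.28 for LSS. MSMO1 had 12.74 and 12.55 in number 2, against 12.54 and 12.37 in number 1, with 12.72 in the ribavirin array, so that all 3 arrays numbered 2 were higher by a small margin. Over the 28 genes, 3 were higher in all 3 arrays numbered 2 (INSIG1, FDPS and MSMO1), where 21.9% of all genes were, and 6 were lower in all 3 (ACAT2, MVD, EBP, SC5D, SREBF2 and ELOVL6), where 21.0% were.

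In DU145, 0 of the 28 genes passed, as did 0 of all 14313 genes (0%), whose smallest adjusted p was 0.0548. At an unadjusted p under 0.05, 13 of the 28 were higher in number 2 and 0 lower, against 3.78% of all genes higher and 7.78% in either direction. They were 8 of 16 sterol enzymes (HMGCS1, IDI1, FDPS, SQLE, LSS, MSMO1, HSD17B7 and SC5D), 3 of 6 regulators (INSIG1, SREBF1 and STARD4) and 2 of 6 fatty acid enzymes (SCD and ACLY). The median difference, number 2 minus number 1, was 0.43 over the sterol enzymes, 0.41 over the regulators and 0.16 over the fatty acid enzymes, against 0.02 over all genes. In 17 of the 28, all 3 arrays numbered 2, the ribavirin array included, were above both arrays numbered 1, where 18.3% of all genes were. MVD alone was lower in all 3, where 14.8% of all genes were. Since sterol genes are known to move together, these 28 genes are not independent observations.

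INSIG1 had log2 intensities of 11.95 and 11.74 in the DU145 EOS and PGK arrays numbered 2, against 10.04 and 10.77 in those numbered 1. The ribavirin array had 12.11, and the difference between numbers was 1.44 ± 0.21 (2.71-fold, adjusted p = 0.170). It ranked 11 of 14313 genes by p. SCD had 14.34 and 14.37 in number 2, against 12.68 and 13.43 in number 1, with 14.27 in the ribavirin array. The difference of 1.30 ± 0.18 (2.47-fold, adjusted p = 0.170) was shared by its 3 other probe sets, at 0.87, 0.77 and 0.69. HMGCS1 had 11.94 and 12.03 in number 2, against 10.68 and 11.02 in number 1, with 12.22 in the ribavirin array. For HMGCS1 the gap between numbers, 1.13 ± 0.15 (2.19-fold, adjusted p = 0.155), was larger than the spread within either number.

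IDI1, which interconverts the isoprenoid building blocks, had 13.11 and 13.09 in number 2, against 12.03 and 12.10 in number 1, with 13.29 in the ribavirin array. With 1.03 ± 0.13 (2.04-fold, adjusted p = 0.122) it ranked 4 of 14313 genes by p, and its other probe sets gave 1.07, 0.25 and 0.05. MSMO1 had 12.79 and 12.66 in number 2, against 11.46 and 11.997 in number 1, with 13.02 in the ribavirin array, and differed by 0.998 ± 0.17 (adjusted p = 0.263). LSS, which closes the sterol rings, had 10.62 and 10.53 in number 2, against 9.46 and 9.78 in number 1, with 10.48 in the ribavirin array, and differed by 0.95 ± 0.18 (adjusted p = 0.309). The 3 numbered 2 arrays were above both numbered 1 arrays in each of these genes. FDPS differed by 0.76 ± 0.13 and SREBF1 by 0.81 ± 0.23, and SQLE by 0.48, although another probe set of SQLE gave -0.38. STARD4 had 10.67 and 10.60 in number 2, against 9.70 and 10.38 in number 1, with 10.68 in the ribavirin array, a difference of 0.59 ± 0.25. SREBF2, ACACA and FADS2 showed no such gap in the probe set used: ACACA differed by -0.05, FADS2 by -0.19, and the SREBF2 arrays of the 2 numbers overlapped. The other probe sets of SREBF2 gave 1.24 and 0.05. INSIG2 had 10.16 and 10.04 in number 2, against 10.03 and 10.002 in number 1, and ELOVL6 had 10.99 and 11.28 in number 2, against 11.05 and 11.20 in number 1.

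The EOS array numbered 1 of DU145 was the lowest of the 5 DU145 arrays for INSIG1, SCD, HMGCS1, IDI1, MSMO1, LSS, SREBF1 and STARD4. The gap was present in EOS cells and in PGK cells: INSIG1 differed by 1.91 and 0.97, SCD by 1.66 and 0.94, HMGCS1 by 1.25 and 1.01, IDI1 by 1.08 and 0.98, and MSMO1 by 1.33 and 0.66. It was smaller in PGK cells for SREBF1, at 1.15 and 0.46, and for STARD4, at 0.97 and 0.21, so that the STARD4 value rests largely on EOS array 1. The sterol enzyme median was 0.48 in EOS cells and 0.50 in PGK cells. With either PGK array of DU145 left out, the INSIG1 difference rests on the EOS pair alone and was 1.91. Without EOS array 1 it rests on the PGK pair alone and was 0.97. A sum of markers of another cell type moved with the number too: the summed intensity of 5 fibroblast genes was 724 to 3147 in the 3 DU145 arrays numbered 2 and 377 to 413 in the 2 numbered 1, with 4 of 4 tested genes above 0. Below the array median in every array lay 2 of the 5 in number 2 and 3 of the 5 in number 1. Only POSTN, at 10.99, 10.77 and 7.24 in number 2 against 6.75 and 5.58 in number 1, and COL1A1 did not overlap between numbers. DCN, LUM and COL3A1 overlapped. COL3A1 in PGK array 2, at 5.71, was below both arrays numbered 1, at 6.25 and 5.99. The sum of KRT8 and KRT18, keratins of epithelium, was 11708 to 15104 in number 2 and 15666 to 21794 in number 1. The leukocyte genes summed to 90.8 to 148 in number 2 and 83.0 to 107 in number 1, and the adipocyte and hepatocyte genes to 113 to 151 and 135 to 164. The part of these markers in the sterol difference was not tested.

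**Figure D3:**
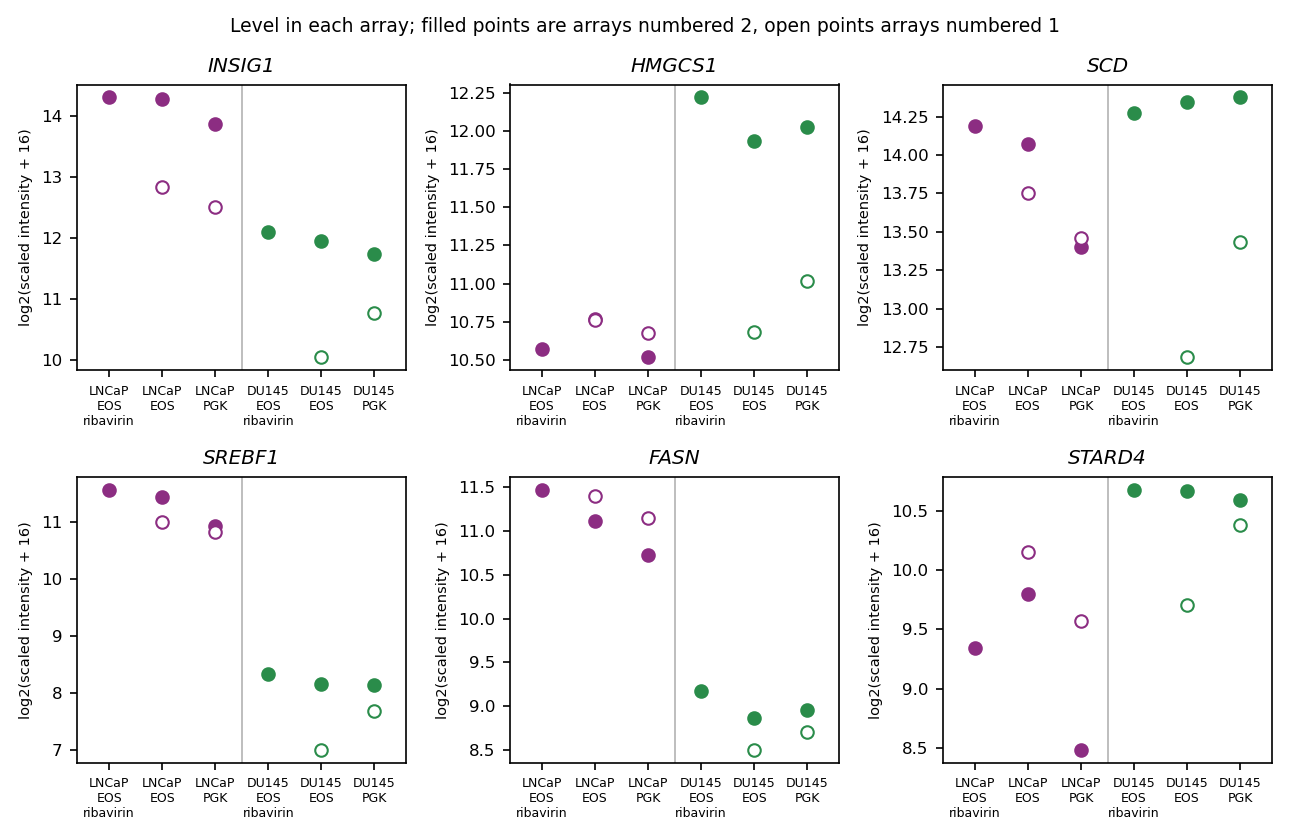
Log2 intensity of INSIG1, HMGCS1, SCD, SREBF1, FASN and STARD4 in each of the 10 arrays, by line and by EOS ribavirin, EOS and PGK cells. Filled points are arrays numbered 2 and open points arrays numbered 1. INSIG1 was higher in number 2 in both lines. HMGCS1 and SCD were split by number in DU145, and SREBF1 and FASN were split by line.

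Whether the number difference itself differed between the lines was tested as LNCaP minus DU145. None of the 28 genes passed, where 0.943% of all genes did (0.559% higher and 0.384% lower). The difference was below 0 for all 16 sterol enzymes, all 6 regulators and 4 of 6 fatty acid enzymes, against 7103 of all 14313 genes. Its median was -0.56 over the 28 genes against 0.00 over all genes. At an unadjusted p under 0.05, 12 of the 28 were lower and 0 higher, against 6.86% and 7.18% of all genes. HMGCS1 was closest to the threshold, at -1.21 ± 0.21 (adjusted p = 0.0515), followed by IDI1 at -0.99 ± 0.18 (adjusted p = 0.0543). SCD had -1.17 ± 0.26 (adjusted p = 0.0983). HMGCS1 and IDI1 passed with a pseudocount of 64 (adjusted p = 0.0443 and 0.0477), IDI1 with quantile normalization (adjusted p = 0.0364), and HMGCS1 without the LNCaP ribavirin array (adjusted p = 0.0499). The largest difference was that of STARD4, -1.31 ± 0.35 (adjusted p = 0.167). INSIG1 had nearly the same number difference in each line, and the difference between lines was -0.03 ± 0.30.

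**Figure D4:**
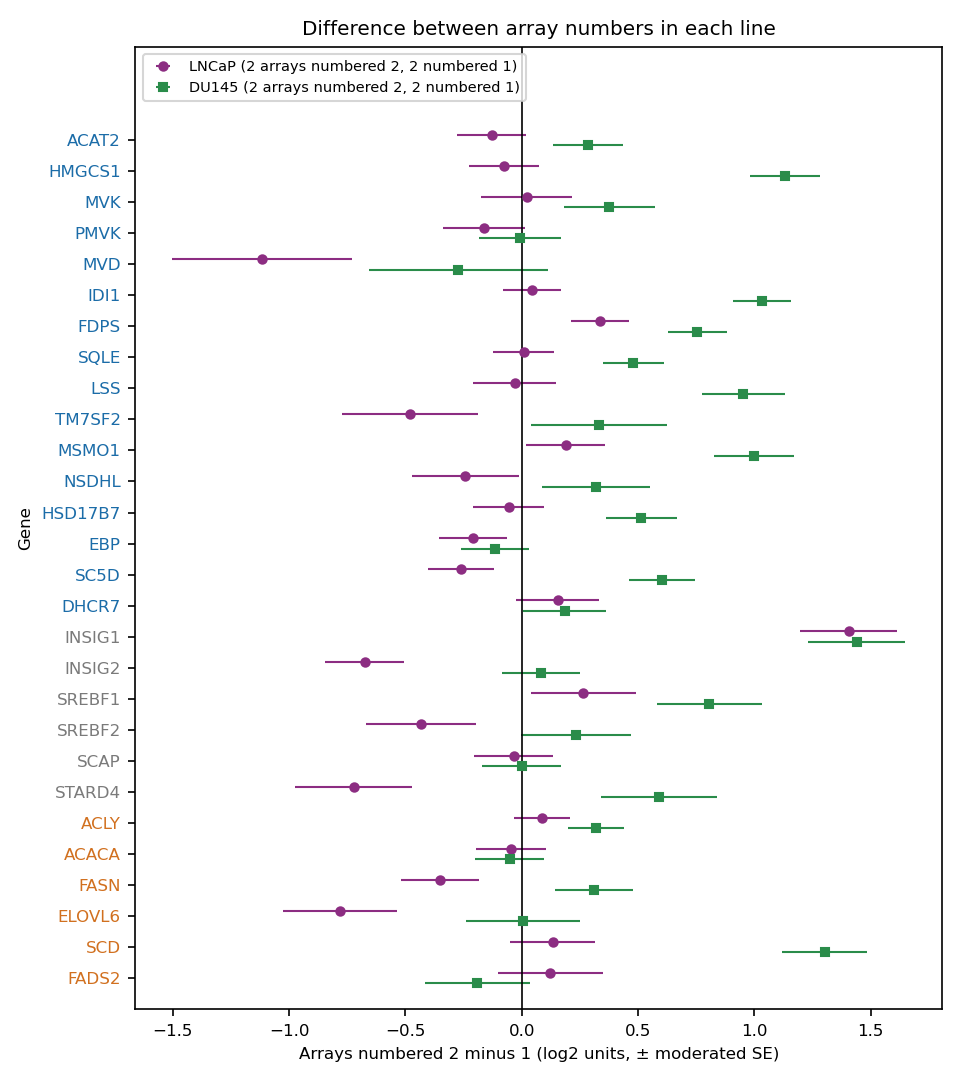
Difference in log2 intensity between arrays numbered 2 and 1 for the 28 genes. Circles are LNCaP and squares DU145, with bars for moderated standard errors. INSIG1 lies at 1.41 in LNCaP and 1.44 in DU145, whereas HMGCS1, IDI1 and SCD lie above 1 in DU145 alone.

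The third comparison asked how EOS-selected cells differed from PGK cells, the main question of the series. None of the 28 genes passed in either line, and none did in the test of the difference between lines. The same was true of all 14313 genes in each of these tests (0%). In LNCaP, 21 of the 28 were above 0, against 8016 of all 14313 genes, with a median of 0.19 against 0.05 over all genes. Those above 0 included 6 of 6 regulators, of which SCAP was only at 0.0016, and 6 of 6 fatty acid enzymes. At an unadjusted p under 0.05, 2 of the 28 were higher in LNCaP EOS cells and 0 lower, against 3.06% and 1.10% of all genes. With array number as a block they were 7 higher and 0 lower, against 5.95% and 3.12% of all genes, and 0 of all genes passed the adjusted test.

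STARD4, which moves cholesterol between membranes, had log2 intensities of 9.80 and 10.16 in the LNCaP EOS arrays numbered 2 and 1, against 8.48 and 9.57 in the PGK arrays. The EOS arrays were both above the PGK arrays, by 0.95 ± 0.41 (adjusted p = 0.999), but the difference was 0.41 without the PGK array numbered 2 and 1.49 without the PGK array numbered 1. INSIG2 had 10.75 and 11.60 in EOS, against 10.02 and 10.51 in PGK, a difference of 0.91 ± 0.30 (adjusted p = 0.999) that was 0.66 without that array and 0.48 without the EOS array numbered 1. TM7SF2, a sterol reductase, had 10.96 and 10.84 in EOS, against 9.64 and 10.72 in PGK, a difference of 0.72 ± 0.36. ELOVL6 had 11.43 and 11.65 in EOS, against 10.20 and 11.53 in PGK. SCD had 14.07 and 13.75 in EOS, against 13.40 and 13.46 in PGK. In TM7SF2, ELOVL6 and STARD4 the PGK array numbered 2 was the lowest LNCaP array, and TM7SF2 and ELOVL6 differed by 1.32 and 1.23 within number 2 but by 0.12 and 0.12 within number 1. INSIG2 differed by 0.73 within number 2 and 1.09 within number 1. With array number as a block, the SE was 0.17 for INSIG2 and 0.25 for STARD4, and neither passed (adjusted p = 0.393 and 0.531). The sterol enzyme median was 0.15, and it was 0.07 without the PGK array numbered 2.

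In DU145, 8 of the 28 were above 0, against 6755 of all 14313 genes, with a median of -0.08 against -0.02 over all genes. At an unadjusted p under 0.05 there were 0 of the 28, against 1.58% of all genes. The largest differences were those of TM7SF2, SCD and SREBF1. TM7SF2 had 10.19 and 9.51 in the DU145 EOS arrays numbered 2 and 1, against 10.39 and 10.40 in PGK, a difference of -0.54 ± 0.36. SCD had 14.34 and 12.68 in EOS, against 14.37 and 13.43 in PGK, a difference of -0.39 ± 0.49. SREBF1 had 8.16 and 7.01 in EOS, against 8.15 and 7.68 in PGK, a difference of -0.33 ± 0.38. In all 3 the low value was EOS array 1. Within number 2, all 6 regulators were above 0 in EOS cells with a median of 0.10, but SCAP and SREBF1 were only at 7.1e-05 and 0.01. Within number 1 the median of the regulators was -0.49. The EOS difference itself differed between lines, LNCaP minus DU145, by 1.26 ± 0.51 for TM7SF2, 1.26 ± 0.58 for STARD4 and 0.90 for ELOVL6, and none passed the test. The TM7SF2 value was 0.72 without the LNCaP PGK array numbered 2, which was also the lowest LNCaP array for STARD4 and ELOVL6. Its unadjusted p was under 0.05 for 1 of the 28, TM7SF2, against 3.24% of all genes.

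**Figure D5:**
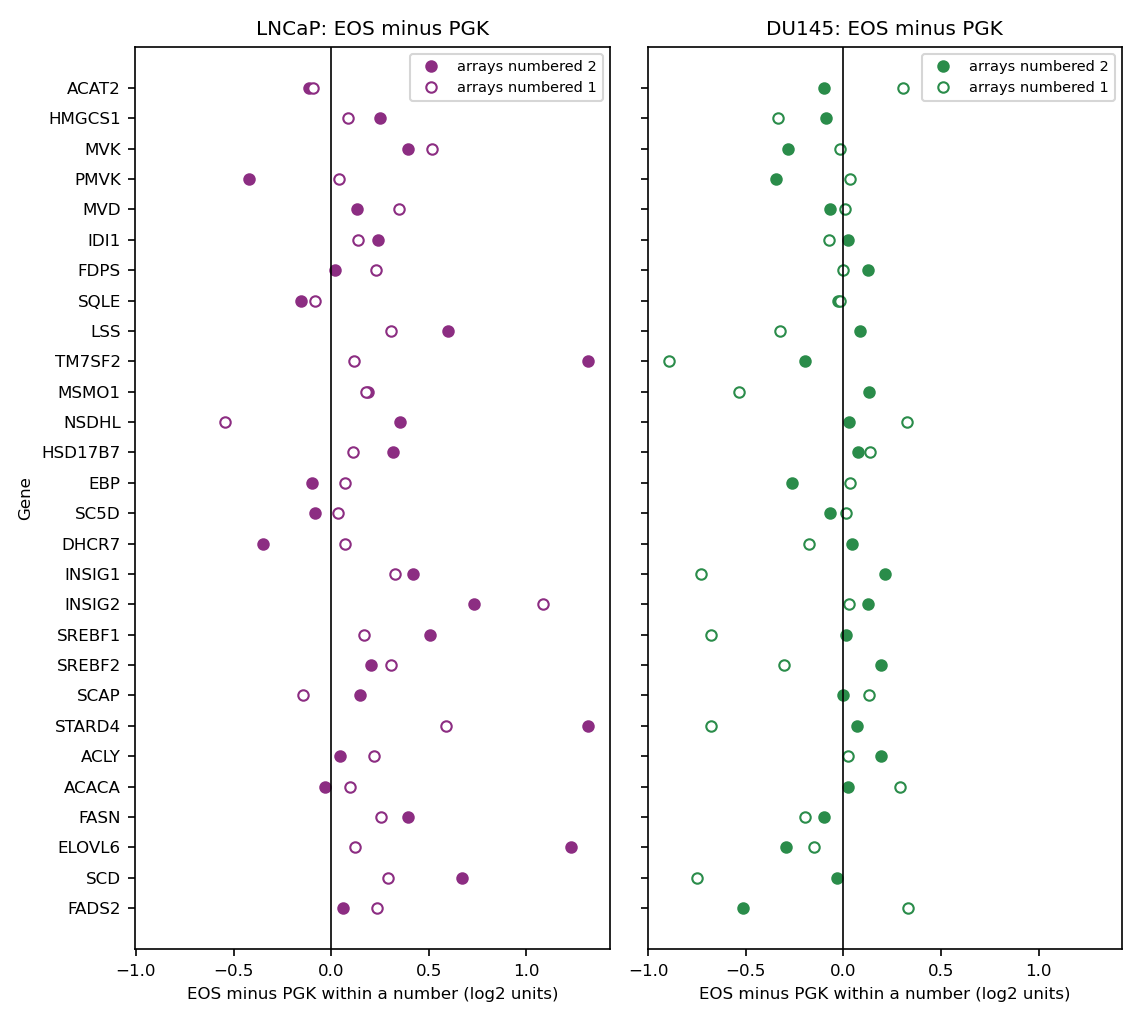
EOS minus PGK difference in log2 intensity for the 28 genes within array number 2 and within array number 1, in LNCaP and in DU145. Each point is 1 gene. In LNCaP most genes were above 0 in both numbers, while in DU145 INSIG1 and SCD were at 0.21 and -0.03 in number 2 and at -0.73 and -0.75 in number 1.

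The last comparison was between ribavirin-treated EOS cells and EOS cells, with 1 treated array in each line. None of the 28 genes passed in LNCaP, in DU145 or in the mean of both lines, and none of all genes did (0%). In LNCaP, 11 of the 28 were above 0, against 6943 of all 14313 genes, with a median of -0.06. MVD alone reached an unadjusted p under 0.05, where 0.538% of all genes were higher and 1.48% lower at that threshold. MVD had a log2 intensity of 4.30 in the ribavirin array, against 5.80 and 7.02 in the EOS arrays numbered 2 and 1. The difference of -2.11 ± 0.65 had an adjusted p of 0.999 and runs into the lowest value of the scale. STARD4 had 9.34 with ribavirin, against 9.80 and 10.16 in EOS, a difference of -0.63. ELOVL6 had 11.01 with ribavirin, against 11.43 and 11.65 in EOS. SCD had 14.19 with ribavirin, against 14.07 and 13.75 in EOS. TM7SF2 and INSIG2 had 11.04 and 10.87 with ribavirin. The STARD4 and ELOVL6 values were below both EOS arrays, and the SCD value was above both. INSIG1 had 14.31 with ribavirin, against 14.29 and 12.84 in EOS, so the treated array was close to the EOS array of its own number.

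In DU145, 20 of the 28 were above 0, against 8059 of all 14313 genes, with a median of 0.30. At an unadjusted p under 0.05 there were 0 of the 28, against 1.75% of all genes. INSIG1 had 12.11 with ribavirin, against 11.95 and 10.04 in the EOS arrays numbered 2 and 1, a difference of 1.12 ± 0.89. HMGCS1 had 12.22 with ribavirin, against 11.94 and 10.68, a difference of 0.91 ± 0.52, and MSMO1 had 13.02, against 12.79 and 11.46, a difference of 0.89 ± 0.48. The ribavirin array was 0.16, 0.29 and 0.23 above EOS array 2 in these 3 genes, and 2.07, 1.54 and 1.56 above EOS array 1. With array number as a block the differences were 0.40, 0.35 and 0.39. The sterol enzyme median of 0.24 became -0.03 with the block. The same median was -0.02 against EOS array 2 alone and 0.50 against EOS array 1 alone, so its sign depended on the number of the array used as control. In the mean of both lines MVD alone had an unadjusted p under 0.05, at -1.16, against 1.77% of all genes, and INSIG1 and SCD had differences of 0.93 and 0.52. That mean gave a median of 0.04 over the sterol enzymes and of 0.16 over the fatty acid enzymes, against 0.01 over all genes. With array number as a block, MVD, INSIG1 and SCD had differences of -0.82, 0.22 and 0.16 in the mean of both lines. The medians were then -0.05 over the sterol enzymes and 0.16 over the fatty acid enzymes.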

How the data were processed

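Gene expression was measured on 10 Affymetrix arrays of 6 groups, with replicate numbers and groups taken from the labels. The deposited tables held linear probe set intensity, and MAS5 and affy were named, without versions or roles, per the submitters' processing notes. How background was corrected, and to what target arrays were scaled, was not given in the sources used here. A 2% trimmed mean of 500 was set in each array, and log2(intensity + 16) was taken, which has a floor of 4 and understates the change of dim genes. Of 54675 probe sets, 62 controls were left out, 41091 had 1 gene symbol in the platform annotation, and 33451 lay above the array median in at least 2 arrays. The 27494 of these with 1 symbol gave 14313 genes, each as its brightest probe set.

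Tests used limma 3.58.1 under R 4.3.3, with cell means of the 6 groups over all 10 arrays, a trend of the prior on intensity, and the Benjamini-Hochberg threshold at 0.05. This fit had 4 residual degrees of freedom, so the number of arrays limits every value, and the lone ribavirin arrays are assumed to vary as much as the replicated groups. The number comparisons came from a fit with a number term in each line, with 2 residual degrees of freedom, which also served as the block for the other comparisons. Across 14313 genes, same-numbered EOS and PGK arrays deviated together from their group means in LNCaP (r = 0.484) and only weakly in DU145 (r = 0.123). With 2 arrays a group, the 2 deviations mirror each other, and r does not show what the number stands for. The design written from the labels had assumed values on 1 common scale, and the rescaling follows from the deposited trimmed means. The fit was also run on simulated data with 200 changed genes and noise drawn independently for each array. That noise held no shared difference between array numbers, so the run does not show how the fit performs on these arrays.

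The members and lists were chosen with earlier results of these data known. Genes given in every array were a fixed list of pathway genes, those that passed in an EOS, ribavirin or number comparison, and the 3 of largest absolute difference in each comparison. Motifs were counted in promoters of the RefSeq table of GRCh38.p14. Alternatives were pseudocounts of 1 and 64, quantile normalization, no filter on dim probe sets, the mean of all kept probe sets, unscaled intensities, PGK groups only, the replicate block, and leaving out each array.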

Additional observations from a re-analysis of the deposited data

How the results depend on the processing

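Among the member differences with an unadjusted p under 0.05, none reversed under any alternative run. The count of members that passed between the lines, 18, was 0 on unscaled intensities, which keep the difference in deposited scale in the spread (442 of all genes passed), 9 among the PGK groups only, and 13 to 17 with 1 array left out (5908 to 6921 of all genes). The replicate block gave 22 between the lines and 0 in the EOS and ribavirin comparisons. It moved the sterol median for ribavirin in DU145 to -0.0324. Leaving out 1 array gave -0.0152 to 0.50 for that median and 0.13 to 0.35 for the fatty acid median. With the mean of all kept probe sets, the fatty acid median was 0.16 for ribavirin in DU145 and 0.38 between the lines, the number difference had a sterol median of 0.32 in DU145 and -0.23 in LNCaP with a fatty acid median of 0.11, and the sterol median of the difference between lines was -0.62. The members called by number in LNCaP were then 3 (INSIG1, INSIG2 and ELOVL6). A pseudocount of 64 gave 2 calls and a sterol median of -0.52 for the difference between lines, and quantile normalization gave 1 call.

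Leaving out 1 array at a time gave the following ranges. For number 2 against 1, calls were 1 to 2 in LNCaP, 0 to 1 in DU145 and 0 to 1 for the difference between lines. ELOVL6 was the second LNCaP call, without either EOS array (-1.33, adjusted p = 0.0148 and 0.0152). The sterol medians were -0.12 to -0.0109 in LNCaP, 0.43 to 0.50 in DU145 and -0.70 to -0.49 for the difference, and the fatty acid medians -0.0559 to 0.0195, 0.15 to 0.23 and -0.51 to -0.28. The calls over all genes were 474 to 940 in LNCaP, 0 to 6 in DU145 and 67 to 193 for the difference, for which a pseudocount of 1 gave 71. For EOS against PGK in DU145 the sterol median was -0.27 to 0.24 and the fatty acid median -0.23 to 0.0514, and for the difference between lines they were -0.23 to 0.35 and 0.17 to 0.48. The median EOS change of all genes in DU145 was -0.18 on unscaled intensities, and 0.22 for the difference between lines. The cause of these moves was not tested. With 2 arrays a group, precision is limited by their number, and only MVD lay close to the lowest value of the scale.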

Other observations

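Genes that take up, store or break down lipid were read from lists chosen like the members, with earlier results known. Between the lines, 4 of 12 tested genes of sterol uptake, transport and ester storage were higher in LNCaP and 3 lower, 10 and 5 of 20 genes of fatty acid activation, elongation and glyceride synthesis, and 5 and 2 of 10 genes of fatty acid breakdown, where 23.5% of all genes were higher and 24.9% lower. ACSL4, which activates arachidonate, was lower in LNCaP with a log2 difference of -5.15 ± 0.33 (limma, adjusted p = 5.37e-06), whereas ACSL1, another acyl-CoA synthetase, was higher with 3.58 ± 0.30. The cholesterol exporter ABCA1 was lower in LNCaP with -2.71, as was the desaturase SCD5 with -2.05. The breakdown genes ETFDH and CPT2 were higher with 1.62 and 0.96, and HADHA, of mitochondrial beta oxidation, was lower with -0.91.

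Between array numbers in LNCaP, SOAT1, which stores cholesterol as esters, was lower in number 2 with -1.12 (limma, adjusted p = 0.0101), as was ACADVL, which oxidises long fatty acids, with -0.80. HSD17B12, an enzyme of fatty acid elongation, was higher with 1.73 ± 0.14 (adjusted p = 0.000559), as were PPARA with 1.24, ACSL1 with 0.92 and ELOVL7 with 0.88. In all, 1 of 12, 4 of 20 and 2 of 10 genes passed, against 6.45% of all genes. HSD17B12 was also the 1 gene of these lists whose number difference differed between the lines, by 1.29 (adjusted p = 0.0279). In DU145, 0 of these genes passed, as did 0 of all genes (0%), and ACSL4, LPIN1 and ABCA1 were higher in number 2 with 0.93, 0.88 and 0.77. In the EOS and ribavirin comparisons 0 of these genes passed.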
